A study of Homo sapiens with 18 samples.

Results

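The 10 genes MYC, MYCN, MYCL, MAX, MXD1, MXD3, MXD4, MXI1, MNT and MGA encode the MYC proteins, their partner MAX and the MAX-binding repressors, and were picked by gene symbol out of the 28395 genes in each RNA-seq table by a rule that reads no measured value, although the set was chosen with earlier results of these data known. Chromatin was described at the 48 ATAC-seq regions that lay within 5 kb of one of the 10 genes, out of 85549 regions in the whole genome. All cells were K562, an established human line from chronic myelogenous leukemia that makes WT1 but almost no BASP1, a corepressor that carries an N-terminal myristoyl group. The control line V-K562 held the vector without insert, B-K562 made wild-type BASP1 (wtBASP1), and G-K562 made the mutant BASP1-G2A, which cannot be N-myristoylated. Each line was 1 stably transfected pool kept under the drug G-418, so that a difference between pools and the effect of the transgene cannot be told apart. Each line gave 3 independently prepared samples per assay (RNA-seq or ATAC-seq), 9 libraries for each, and the comparisons asked what wtBASP1 changed, what BASP1-G2A changed, and where the 2 proteins differed.

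MYC, MYCN and MYCL are transcription factors that bind DNA, typically at the E-box CACGTG, as heterodimers with MAX, and activate genes of growth, ribosome production and metabolism. MAX also pairs with the MXD proteins, MXI1 and MNT, which bring the SIN3-HDAC corepressor to the same sites, and with MGA, a large protein of the PRC1.6 polycomb complex. Cells that differentiate commonly lose MYC and gain MXD proteins, and in K562 cells MYC is known to oppose erythroid maturation.

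The deposited RNA values were read counts divided by a size factor, called normalised read counts here. They summed to between 32074895 and 33229588 per library over all genes, and the spacing of the values put the reads behind them at 28914432 to 37039975 per library. BASP1 was at 5 to 7 in V-K562 cells, 6189 to 6849 in B-K562 cells and 8124 to 12538 in G-K562 cells, so the RNA libraries followed their labels as to the presence of BASP1. This does not tell wtBASP1 from BASP1-G2A, and the ATAC-seq libraries were not checked in this way. The erythroid markers of K562 (9 genes such as GATA1, KLF1 and the globins HBG1, HBG2 and HBZ) were all detected, and their summed value ranged from 87214 to 97527 in V-K562, from 155217 to 158424 in B-K562 and from 48693 to 54642 in G-K562 libraries. Of the 9, 9 were called higher in B-K562 cells (38.6% of all genes), and 1 higher and 7 lower in G-K562 cells (33.5% and 33.3% of all genes). Summed fibroblast markers (4 genes, mostly COL1A1 and COL1A2) ranged from 1497 to 1768 in V-K562 libraries, against 905 to 1200 with wtBASP1 and 1157 to 1280 with BASP1-G2A, and COL1A1 and COL1A2 were called lower in both lines. Summed lymphoid markers (4 genes, 1 of them at 0 throughout) were at 126 to 146, 69.2 to 85.4 and 115 to 155 in the same order, and epithelial markers (3 genes, mostly EPCAM) at 1418 to 1916, 1520 to 1610 and 1132 to 1382. Erythroid and fibroblast markers thus moved with both comparisons below, and their part in the results was not tested. In bulk libraries, fewer cells with a transcript and less of it per cell cannot be told apart.

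Per length of merged exons, MYC was by far the most abundant member in V-K562 cells, at 2523 ± 191 normalised read counts per kb (SD, n = 3). MXD1 followed at 593 ± 30.7, then MXI1 at 434 ± 28.0 and MAX at 398 ± 19.7, whose ranges overlapped. MYCL at 361 ± 20.5 and MXD4 at 345 ± 41.9 overlapped too, MXD3 stood below them at 223, and MNT at 164 ± 5.11 and MGA at 147 ± 17.6 were not separated. MYCN was close to 0, at 0.11 ± 0.19. The order changed in the other lines. In B-K562 cells MAX stood next (630 ± 49.0 per kb) after MYC (2617 ± 85.0), ahead of MXD1 (339). In G-K562 cells MYC was still first but only at 899 ± 18.6 per kb, with MXD1 next at 547 ± 53.9, and MXI1 was last but for MYCN (133 ± 7.38).

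**Figure D1:**
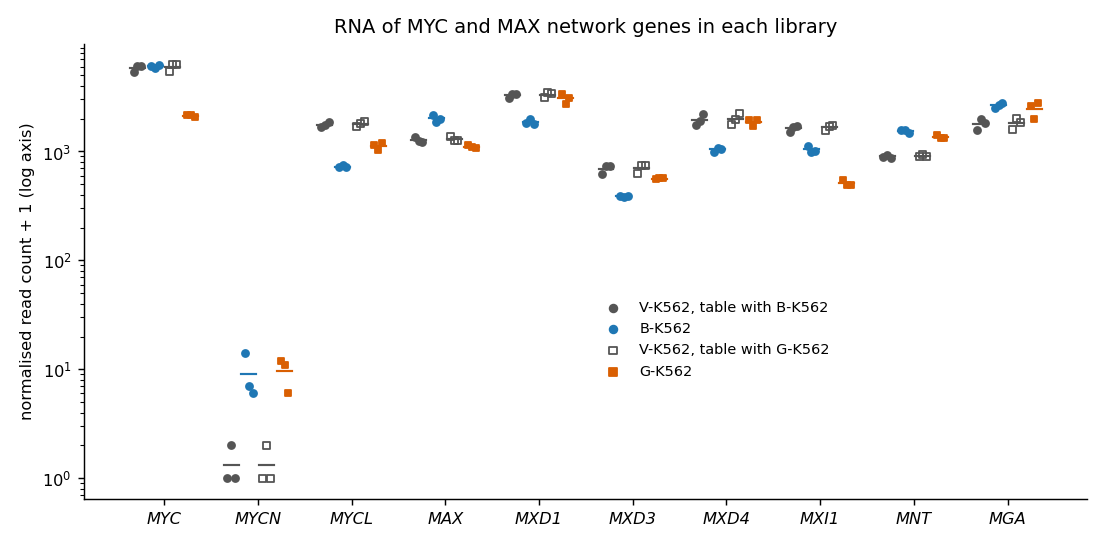
Normalised read count plus 1 (log axis) of the 10 members in each library, with a bar at the mean of each group of 3; V-K562 appears once for each of the 2 deposited tables. G-K562 values of MYC and MXI1 sit below all V-K562 and B-K562 values, MYCL is lowest in B-K562, and MAX is highest in B-K562.

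Of the 9 members above the filter in the B-K562 table, 8 were called between B-K562 and V-K562 cells by limma-trend at an adjusted p of at most 0.05, against 75.8% of all 14958 genes tested. MAX, MNT and MGA were higher (3 of 9, background 38.6%), and MYCL, MXD1, MXD3, MXD4 and MXI1 were lower (5 of 9, background 37.2%). Only MYCL passed the additional 2-fold criterion (1 of 9, background 20.6%). In G-K562 cells 7 of 9 members were called, against 66.9% of 15271 genes, with MNT and MGA higher (2 of 9, background 33.5%) and MYC, MYCL, MAX, MXD3 and MXI1 lower (5 of 9, background 33.3%). MYC and MXI1 passed the 2-fold criterion (2 of 9, background 19.1%). Groups did not overlap for 8 of 9 members in B-K562 (background 77.8%) and for 6 of 9 in G-K562 cells (background 70.2%). Called shares were close to those of all genes, so the counts are no result about the members, and what follows describes which gene moved in which line. The 2 comparisons share the V-K562 libraries, so their values are given side by side without a test of how alike they are.

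**Figure D2:**
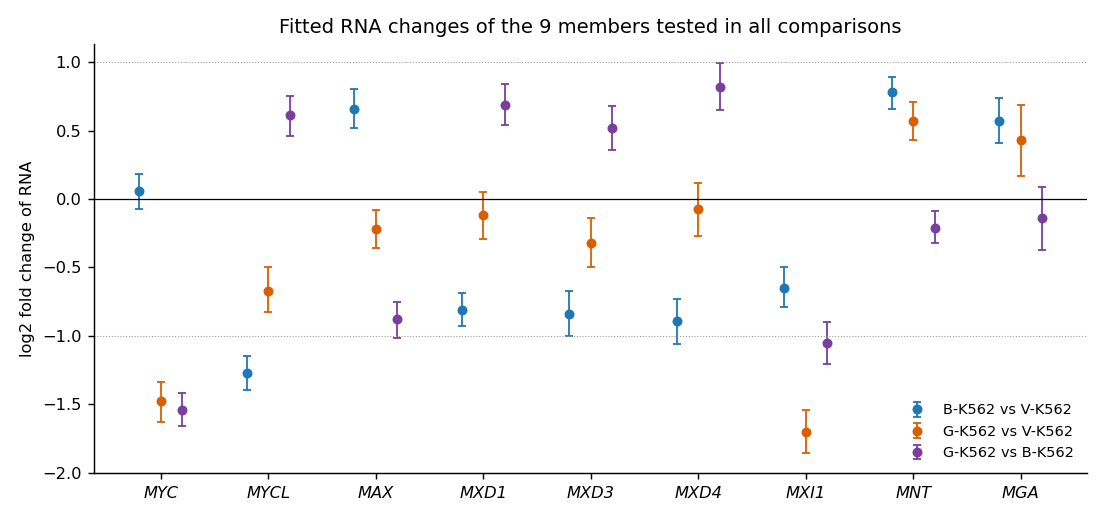
Fitted log2 fold changes of RNA with 95% confidence intervals for the 9 members tested in all 3 comparisons; dotted lines mark 2-fold. Against V-K562, MYC was called in G-K562 alone, MAX went up in B-K562 and down in G-K562, and the points of MXD1 and MXD4 fell in B-K562 but lay near 0 in G-K562.

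MYC, on chromosome 8 (127736069 to 127741434, plus strand, GRCh38), was at 5365, 6137 and 6103 in V-K562 and at 6126, 5874 and 6264 in B-K562 libraries. The groups overlapped, and the difference of 0.06 on the log2 scale had a 95% interval of -0.07 to 0.18 and turned to -0.10 under quantile normalization, not called in either case. In the table with G-K562, V-K562 libraries were at 5447, 6231 and 6227 and G-K562 libraries at 2145, 2161 and 2078. All 3 G-K562 libraries were far below V-K562, with little spread among them, at 0.357 of the V-K562 level. That was a log2 fold change of -1.48 with a standard error of 0.06 (adjusted p = 5.7e-09). Set directly against B-K562, MYC was 2.91-fold lower with BASP1-G2A (log2 -1.54, adjusted p = 8.2e-12).

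PVT1, a noncoding RNA transcribed next to MYC, had a similar pattern. It was at 2511, 2187 and 2063 in V-K562 and at 826, 825 and 735 in G-K562 libraries, and fell by 1.5 on the log2 scale (adjusted p = 3.7e-08). In B-K562 libraries it was at 2117, 2046 and 2209, a log2 fold change of -0.06 that was not called (adjusted p = 0.45), although quantile normalization gave -0.21 and a call. Of the other noncoding RNAs listed beside members, CASC11 stayed at 2 to 7 in all libraries, CCAT1 and MYCNUT were at 0 and MYCNOS at 0 to 2. The 33 other genes tested within 5 Mb of MYC had a median of 0.06 on the log2 scale with BASP1-G2A, against 0.00 over all genes.

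The 5 genes whose 9 libraries followed MYC most closely, out of 11385 with a mean of at least 100, were DHRS4-AS1, PPA1, ADD2, SAP30 and BNIP1. Their root-mean-square distance from MYC, after centring each gene's log2 values on V-K562, was 0.07 to 0.11. PPA1, an inorganic pyrophosphatase, changed by 0.01 and -1.44 (log2, B-K562 and G-K562 against V-K562) where MYC changed by 0.06 and -1.48, and SAP30, a subunit of the SIN3-HDAC complex, changed by 0.02 and -1.49.

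MYCN, on chromosome 2 (15940438 to 15947007, plus strand), was at or next to 0 in V-K562 libraries, with 0, 1 and 0 normalised read counts, and at 13, 6 and 5 in B-K562 and 11, 10 and 5 in G-K562 libraries. All 6 BASP1-expressing libraries were above all 3 vector libraries, at values still below the filter of 10 in at least 3 libraries, so neither comparison with V-K562 was tested. Without the filter, limma-trend called MYCN higher in both lines, at V-K562 values no larger than the 1 that is added before taking logs. The strand setting of the counting is not stated, so reads of MYCN and of its antisense neighbour MYCNOS, listed at 0 to 2, cannot be told apart. Between G-K562 and B-K562 cells, where the filter was met over 9 libraries, the log2 fold change was 0.12 (95% interval -0.98 to 1.23, adjusted p = 0.84).

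MYCL, on chromosome 1 (39895424 to 39902015, minus strand), was at 1660, 1762 and 1850 in V-K562 and at 717, 745 and 718 in B-K562 libraries. Every B-K562 library lay far below every V-K562 library, at a mean ratio of 0.414, and MYCL was the only member to fall past 2-fold with wtBASP1 (log2 -1.27, adjusted p = 3.3e-10). In G-K562 libraries it was at 1145, 1030 and 1206 against 1685, 1789 and 1888 in V-K562. This smaller fall (log2 -0.67, adjusted p = 1.1e-05) left MYCL 0.61 higher on the log2 scale with BASP1-G2A than with wtBASP1 (adjusted p = 1.0e-06). Around MYCL, 128 tested genes within 5 Mb had a median of -0.43 in G-K562 cells and of -0.02 in B-K562 cells, so the G-K562 fall stood among neighbours whose median was lower too.

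MAX, the shared partner of these proteins, lies on chromosome 14 (65006101 to 65102695, minus strand). It was at 1346, 1239 and 1230 in V-K562 and at 2183, 1878 and 1970 in B-K562 libraries, a rise of 0.66 on the log2 scale or 1.58-fold (standard error 0.06, adjusted p = 4.6e-07). G-K562 libraries held 1136, 1098 and 1086 against 1367, 1258 and 1255 in V-K562. The groups did not overlap, and MAX was slightly lower in G-K562 cells (log2 -0.22, standard error 0.06, adjusted p = 0.009). The change was thus opposite in the 2 lines, and the direct test gave 1.84-fold less MAX with BASP1-G2A than with wtBASP1 (log2 -0.88, adjusted p = 9.0e-09). Neighbouring genes within 5 Mb (48 tested) had a median of -0.16 in G-K562 cells, close to the size of the small fall, and 0.03 in B-K562 cells (47 tested).

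The MXD genes encode repressors that compete with MYC for MAX, and all 4 measured (MXD1, MXD3, MXD4 and MXI1) fell in B-K562 cells. MXD1 was at 3086, 3389 and 3354 in V-K562 and at 1837, 1971 and 1804 in B-K562 libraries, a log2 change of -0.81 (adjusted p = 1.3e-08). MXD4 was at 1731, 1920 and 2191 against 991, 1080 and 1058, and MXD3 at 621, 728 and 728 against 393, 380 and 385. Both gave non-overlapping groups, with log2 fold changes of -0.89 (adjusted p = 1.3e-07) and -0.84 (adjusted p = 2.8e-07), so that the 3 MXD genes had dropped to between 0.538 and 0.571 of the V-K562 level. MXI1 fell less, from 1520, 1674 and 1713 to 1133, 998 and 1007 (log2 -0.65, adjusted p = 8.3e-07).

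In G-K562 cells the same family split. MXD1 was at 3353, 2752 and 3119 against 3133, 3441 and 3422 in V-K562, and MXD4 at 1948, 1718 and 1961 against 1757, 1949 and 2235. In both genes the groups overlapped, and neither log2 fold change was called (-0.12, 95% interval -0.29 to 0.05, and -0.07, 95% interval -0.27 to 0.12). MXD3 was modestly lower, at 552, 574 and 565 against 631, 739 and 742 (log2 -0.32, adjusted p = 0.0051). MXI1 instead dropped to 544, 495 and 495 from 1543, 1700 and 1748, the lowest ratio of any member. It kept 0.308 of its V-K562 level (log2 -1.70, standard error 0.07, adjusted p = 6.5e-09). In the direct comparison, G-K562 cells had more MXD1 (log2 0.69), MXD4 (0.82) and MXD3 (0.52) and less MXI1 (-1.05) than B-K562 cells, with adjusted p from 1.5e-05 to 5.1e-09 in limma-trend.

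MNT, a broadly expressed repressor, and MGA, which recruits polycomb proteins, went up in both lines. MNT was at 892, 931 and 873 in V-K562 and at 1571, 1568 and 1477 in B-K562 libraries, and at 905, 945 and 890 against 1412, 1335 and 1325 in the G-K562 table. In neither table did the groups overlap, and the log2 fold changes were 0.78 (adjusted p = 2.2e-08) and 0.57 (adjusted p = 1.0e-05). MNT was slightly lower with BASP1-G2A than with wtBASP1 (log2 -0.21, adjusted p = 0.0032), a call that was lost under quantile normalization (-0.10, adjusted p = 0.096). MGA rose from 1564, 1989 and 1825 to 2500, 2691 and 2778 in B-K562 cells (log2 0.57, adjusted p = 1.1e-05). In G-K562 libraries it was at 2641, 2001 and 2765 against 1588, 2019 and 1862, so replicate 2 lay among the V-K562 values while the other two were higher (log2 0.43, standard error 0.12, adjusted p = 0.0071). MGA did not differ detectably between the BASP1 lines (log2 -0.14, 95% interval -0.37 to 0.09).

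Between G-K562 and B-K562 cells, 8 of 10 members were called, against 78.5% of 15521 genes. MYCL, MXD1, MXD3 and MXD4 were higher (4 of 10, background 38.1%) and MYC, MAX, MXI1 and MNT lower (4 of 10, background 40.5%), with MYC and MXI1 past 2-fold (2 of 10, background 29.9%) and groups that did not overlap for 8 of 10 (background 81.0%). Set side by side, B-K562 cells held MYC at the V-K562 level with more MAX, MNT and MGA and less MYCL and less of the 4 MXD family repressors. G-K562 cells held less MYC, MXI1 and MYCL, slightly less MAX and MXD3, and more MNT and MGA, with MXD1 and MXD4 near the V-K562 level.

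Genes that MYC is known to activate were read from a list of 36, all of which were measured. In B-K562 cells, where MYC itself was not called, 27 were higher and 6 lower, against 38.6% and 37.2% of all genes, with a median log2 fold change of 0.77 against 0.01 over all genes, and 12 were higher by 2-fold or more. The largest rises were in the ribosome biogenesis genes PPAN (158 ± 12.8 to 556 ± 33.2, SD, n = 3, log2 1.81) and NOP16 (1104 ± 125 to 3709 ± 95.1, log2 1.75). ODC1, the first enzyme of polyamine synthesis, rose by 1.23 and SRM, spermidine synthase, by 1.63 on the log2 scale. Members that fell included the one-carbon enzyme MTHFD2 (log2 -1.31, adjusted p = 2.1e-11) and lactate dehydrogenase LDHA (log2 -0.85, adjusted p = 1.2e-08).

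In G-K562 cells the list leaned the other way but by less: 4 were higher and 21 lower, against 33.5% and 33.3% of all genes, with a median of -0.21 against 0.00 over all genes. TERT, the telomerase reverse transcriptase, fell from 64.7 ± 10.8 to 13.7 ± 4.04 (log2 -2.19, adjusted p = 1.2e-05) and LDHA from 49312 ± 3344 to 11737 ± 291 (log2 -2.07, adjusted p = 4.0e-10). NCL, NPM1, NOP56 and WDR43, nucleolar factors, were not called, at log2 fold changes of -0.08, -0.12, 0.08 and -0.01. Other listed genes of the nucleolus or ribosome biogenesis were called lower: FBL (-0.72), POLR1B (-0.57), NOP16 (-0.35), GNL3 (-0.30) and BOP1 (-0.17). PPAN (-0.12) and DKC1 (0.11) were not called, and RRS1 was called higher. SHMT2 and RRS1 had the largest rises (log2 0.59 and 0.26). Directly against B-K562, 32 of 36 were lower and 3 higher in G-K562 cells (40.5% and 38.1% of all genes, median -1.01 against -0.02 over all genes), led by TERT (log2 -3.03) and SRM (9388 ± 296 to 1625 ± 99.7, log2 -2.53). SHMT2 (1.35), MTHFD2 (1.17) and CCND2 (0.71) were the 3 that were higher. Quantile normalization and the omission of any 1 library left 27 higher in B-K562 and at least 17 lower in G-K562 cells.

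**Figure D3:**
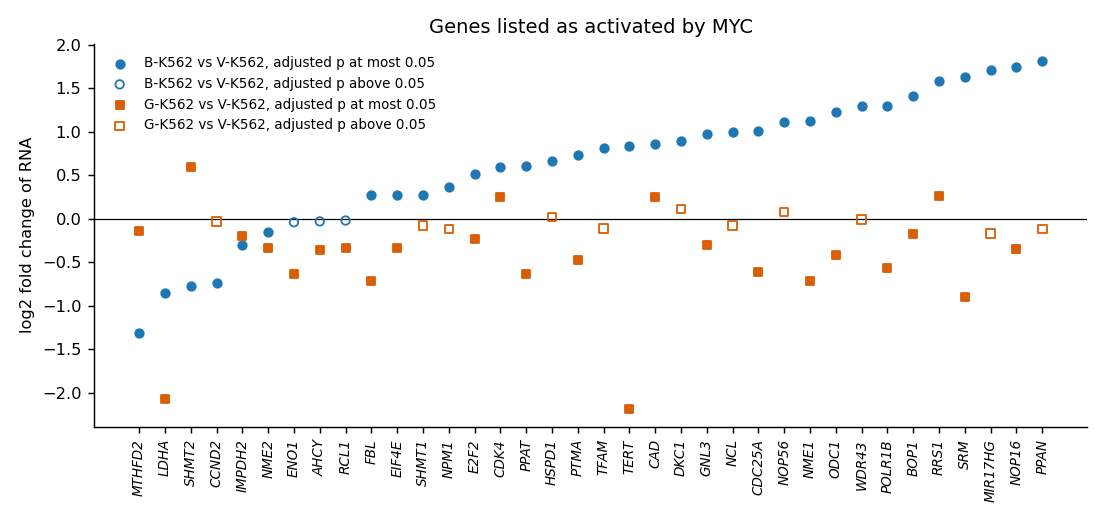
Log2 fold change of RNA against V-K562 for the 36 genes listed as activated by MYC, ordered by their change in B-K562; filled symbols passed an adjusted p of at most 0.05. In B-K562 27 lie above 0 as called genes; in G-K562 21 called genes lie below 0, and LDHA and TERT are the lowest.

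Of 16 genes listed as repressed by MYC, 13 were tested in the B-K562 comparison, where 4 were higher and 8 lower (38.6% and 37.2% of all genes, median log2 -0.57 against 0.01 over all genes). NDRG1 fell from 3491 ± 144 to 185 ± 7.64 (log2 -4.23, adjusted p = 1.8e-14) and CDKN1A, the cell cycle inhibitor p21, from 2617 ± 235 to 512 ± 19.7 (log2 -2.35, adjusted p = 7.0e-12). NDRG2 (log2 0.68) and THBS1 (0.62) had the largest rises. In G-K562 cells 4 of 14 were higher and 5 lower (7 and 4 under quantile normalization), around a median of 0.10 against 0.00 over all genes. These counts were near the 33.5% and 33.3% of all genes and are no result about the list. CDKN1B, the inhibitor p27, rose from 871 ± 53.1 to 1413 ± 72.7 (log2 0.70, adjusted p = 5.2e-06), whereas NDRG1 fell in this line also (log2 -3.26, adjusted p = 6.4e-11), as did GADD45A (-0.52). Against B-K562 directly, 10 of 14 were higher and 4 lower in G-K562 cells (38.1% and 40.5% of all genes, median 0.45 against -0.02), with CDKN1A (log2 2.94) among the higher and THBS1 (-0.70) and CLU (-0.68) furthest down.

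Partners of MYC in chromatin were counted next. In these and the following lists, the shares given beside a count are those of all genes called in the same direction, and the median log2 fold change over all genes was 0.01 in B-K562 cells, 0.00 in G-K562 cells and -0.02 in the direct comparison. Of 14 MYC cofactors, 10 were higher in B-K562 cells, against 38.6% of all genes, and the other 4 were not called (median 0.34, or 7 higher and 2 lower under quantile normalization). HCFC1 (5997 ± 832 to 12361 ± 177, log2 1.05) and WDR5 (2683 ± 136 to 5215 ± 129, log2 0.96), which both bind MYC, rose most. In G-K562 cells 6 were higher and 3 lower (33.5% and 33.3% of all genes, median 0.11), with MAZ (log2 0.48) and SMARCB1 (0.33) up and KAT2A (-0.51) and ZBTB17 (-0.47), the MYC partner MIZ1, down. Leaving out 1 library moved the 6 to between 4 and 7. Directly, 1 of 14, BPTF (log2 0.22), was higher (2 without G-K562 replicate 2) and 7 were lower with BASP1-G2A than with wtBASP1 (38.1% and 40.5% of all genes, median -0.25), led by RUVBL1 (log2 -1.0) and WDR5 (-0.97).

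The SIN3-HDAC corepressor, which the MXD proteins and MNT recruit, had 13 listed subunits. In B-K562 cells 5 were higher and 2 lower (4 lower under quantile normalization, median 0.02), against 38.6% and 37.2% of all genes, so that the share higher is no result about the list. The rises were led by ING2 (log2 0.56) and the scaffold SIN3A (0.54), and SIN3B (-0.27) and ARID4A (-0.19) were down, 1 of which was lost without B-K562 replicate 3 or V-K562 replicate 2. In G-K562 cells 3 were higher and 7 lower (33.5% and 33.3% of all genes, median -0.26), with SIN3A (0.70) and SIN3B (0.34) up. SAP30 fell from 795 ± 56.9 to 282 ± 26.2 (log2 -1.49, adjusted p = 9.9e-08) and RBBP7 by 0.45. Directly, 4 were higher and 8 lower with BASP1-G2A than with wtBASP1 (38.1% and 40.5% of all genes, median -0.28), with SAP30 (-1.51) and ING2 (-0.98) lowest and SIN3B (0.61) and ARID4A (0.38) highest.

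Of 11 partners of MGA in the PRC1.6 complex, 8 were higher and 1, RYBP (log2 -0.12), lower in B-K562 cells (38.6% and 37.2% of all genes, median 0.46), where MGA rose as well. The RYBP call was lost without any of the B-K562 replicates or without V-K562 replicate 1 or 2. L3MBTL2 rose from 635 ± 26.0 to 1604 ± 42.9 (log2 1.34, adjusted p = 1.9e-10), followed by WDR5, which is also on the cofactor list. In G-K562 cells 3 were higher and 5 lower, near the 33.5% and 33.3% of all genes and no result about the list (median -0.04), with L3MBTL2 (0.66) and E2F6 (0.37) up and RYBP (-0.38) and YAF2 (-0.29) down. The 5 became 2 without G-K562 replicate 1 or V-K562 replicate 2 and 3 without G-K562 replicate 3. Directly, 10 of 11 were lower and 1, RING1 (0.14, lost without G-K562 replicate 1 or 2 or B-K562 replicate 2 or 3), higher in G-K562 cells (40.5% and 38.1% of all genes, median -0.34), with WDR5 (-0.97) and TFDP1 (-0.82) lowest.

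Among 16 measured genes of MYC protein turnover, 11 were higher and 2 lower in B-K562 cells (38.6% and 37.2% of all genes, median 0.31). SKP2, a ubiquitin ligase subunit, rose from 2150 ± 87.3 to 6403 ± 103 (log2 1.57, adjusted p = 9.1e-12) and STUB1 by 1.0 on the log2 scale, while TRPC4AP (-0.63) and FBXW7 (-0.23), both adaptors of ligases that target MYC, fell. In G-K562 cells 3 were higher and 7 lower (33.5% and 33.3% of all genes, median -0.05), with SKP2 (-0.84) and AURKA (-0.69) furthest down and STUB1 (0.33) and GSK3B (0.25) furthest up. Directly, 2 were higher, TRPC4AP (0.66) and PPP2R5A (0.33), and 11 lower (38.1% and 40.5% of all genes, median -0.45) in G-K562 cells, led by SKP2 (-2.42) and AURKA (-0.84).

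The parallel MLX branch has 3 genes. MLXIPL, the glucose-responsive factor ChREBP, fell from 1726 ± 229 to 330 ± 12.1 in B-K562 cells (log2 -2.38, adjusted p = 4.5e-11), while MLX was 0.22 higher (adjusted p = 0.0015), and MLXIP was not called (log2 -0.01). Under quantile normalization no gene of the 3 was called higher and 2 were called lower. In G-K562 cells MLX, MLXIP and MLXIPL had log2 values of 0.12, 0.12 and -0.03, with adjusted p of 0.081, 0.15 and 0.79, so that they were not called (1 was without G-K562 replicate 2). MLXIPL was 2.35 higher on the log2 scale with BASP1-G2A than with wtBASP1 (adjusted p = 8.3e-12).

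ATAC-seq measures open chromatin by the insertion of a transposase. Of the 48 member regions, 28 had a peak in all 9 libraries and 7 in only 1 or 2. By position 13 were at an annotated start of the member, 20 in an intron, 1 in an exon, 3 upstream and 11 downstream, and 3 of the 48 lay at the start of another gene. The height of each region was its highest summit pileup, the number of overlapping fragments per library at equal sequencing depth. Of 38 regions tested between B-K562 and V-K562 cells, 14 were called by limma-trend, against 25.2% of all 52204 regions. Of these, 9 were higher (background 8.57%) and 5 lower (background 16.6%), and 4 passed 2-fold (background 7.68%). Leaving out 1 library left 9 calls without B-K562 replicate 1, 8 without V-K562 replicate 2, 7 without V-K562 replicate 1 and 6 without any of the other three. In G-K562 cells 19 of 38 were called, against 41.9% of 54213, with 10 higher (background 15.9%) and 9 lower (background 26.0%), and 6 past 2-fold (background 16.0%). Between G-K562 and B-K562 cells 9 of 41 were called, against 27.9% of 60181, with 5 higher (background 12.3%) and 4 lower (background 15.6%), and 4 past 2-fold (background 12.9%).

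For each member, 1 region stood for its own start, the one at an annotated start nearest to the start in the tables, or for MYCN the region upstream. The other 4 regions at annotated starts, 3 of MXI1 and 1 of MYC, are not in this count, and 1 of the MXI1 regions, described below with its gene, changed past 2-fold in G-K562 cells. Changes at the 10 regions were at most 0.61 in size against V-K562, and most calls depended on how base composition was handled. Of these 10, 4 were higher in B-K562 cells (MAX, MXD3, MXD4 and the region upstream of MYCN) and 6 higher and 1 lower in G-K562 cells, with medians of 0.10 and 0.39 on the log2 scale against -0.06 and -0.10 over all regions. Scaling within bins of equal GC content reduced this to 1 higher and 1 lower in B-K562 cells and to a single call, the lower start, in G-K562 cells, with medians of -0.04 and 0.02. The start of MXD1 had the tallest summits of the 10, at 269, 341 and 301 in V-K562, 364, 346 and 391 in B-K562 and 549, 541 and 495 in G-K562 libraries. The deposited summits of G-K562 were all higher, and after scaling the log2 fold change was 0.45 (adjusted p = 0.0077), but 0.18 (adjusted p = 0.18) within GC bins, and MXD1 RNA was not called in this line. Against B-K562 the start was 0.31 higher (adjusted p = 0.034), lost within GC bins (0.23, adjusted p = 0.096) and without G-K562 replicate 1 or 2 or B-K562 replicate 1 or 2. The starts of MXD3 and MXD4 in B-K562 cells (0.61 and 0.39, adjusted p = 0.018 and 0.017) were likewise lost without replicate 2 or 3 of B-K562 or replicate 1 or 2 of V-K562 for MXD3, and without B-K562 replicate 3 or V-K562 replicate 2 for MXD4.

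The lower start was that of MYCL. Its summits were at 107, 92 and 113 in V-K562, 95, 82 and 92 in B-K562 and 76, 105 and 101 in G-K562 libraries, which overlap between the lines. After scaling they were 0.50 lower on the log2 scale in G-K562 (adjusted p = 0.042) and 0.36 lower, not called, in B-K562 cells (adjusted p = 0.067). Within GC bins both were called, at -0.90 (adjusted p = 0.0033) and -0.65 (adjusted p = 0.018), but the G-K562 call was lost at equal depth without further scaling (-0.15, adjusted p = 0.44) and without G-K562 replicate 1 or 3 or V-K562 replicate 1 or 3 (-0.34 to -0.52). MYCL RNA was lower in both lines. The 428 other regions tested within 5 Mb of MYCL had a median of -0.39 in G-K562 cells, against -0.10 over all regions. In B-K562 cells the median of 433 such regions was -0.05, against -0.06 over all regions. The G-K562 value of the MYCL start thus stood among regions whose median was lower too.

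The start of MYC gave summits of 123, 102 and 111 in V-K562, 131, 131 and 125 in B-K562 and 139, 140 and 133 in G-K562 libraries. The deposited summits of both BASP1 lines were all above those of V-K562. After scaling no call was made in either line (log2 0.05 and -0.05, adjusted p = 0.74 and 0.73), although MYC RNA had fallen 2.8-fold in G-K562 cells. At equal depth without further scaling the G-K562 value was 0.30 (adjusted p = 0.049). The changes called at MYC after scaling lay downstream instead. A region 363 bp past the gene's end (chr8:127741797-127742313) had summits of 51, 37 and 59 in V-K562 libraries and no peak in any of the 6 BASP1-expressing libraries. A second, 1548 bp past the end (chr8:127742982-127743323), was at 55, 59 and 51 in V-K562, at 32 in 1 B-K562 library and at 31 and 37 in 2 G-K562 libraries.

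Both downstream regions were thus at their highest in V-K562 cells and lower in each BASP1 line. With absent peaks set to a floor of 17, the first changed by -1.52 (adjusted p = 0.0038) in B-K562 and -1.62 (adjusted p = 0.0010) in G-K562 cells, and the second by -1.45 (adjusted p = 0.0067) and -1.28 (adjusted p = 0.0057). A floor of 10 gave -2.23 and -2.33 for the first, so these sizes depend on the floor. Both regions met the filter of the 2 comparisons only through their V-K562 peaks. Their directions were thus fixed beforehand, and none of these adjusted p is support. Within GC bins the second was not called in G-K562 cells (-0.90, adjusted p = 0.058). MYC RNA fell in only 1 of the 2 lines in which these regions were lower.

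**Figure D4:**
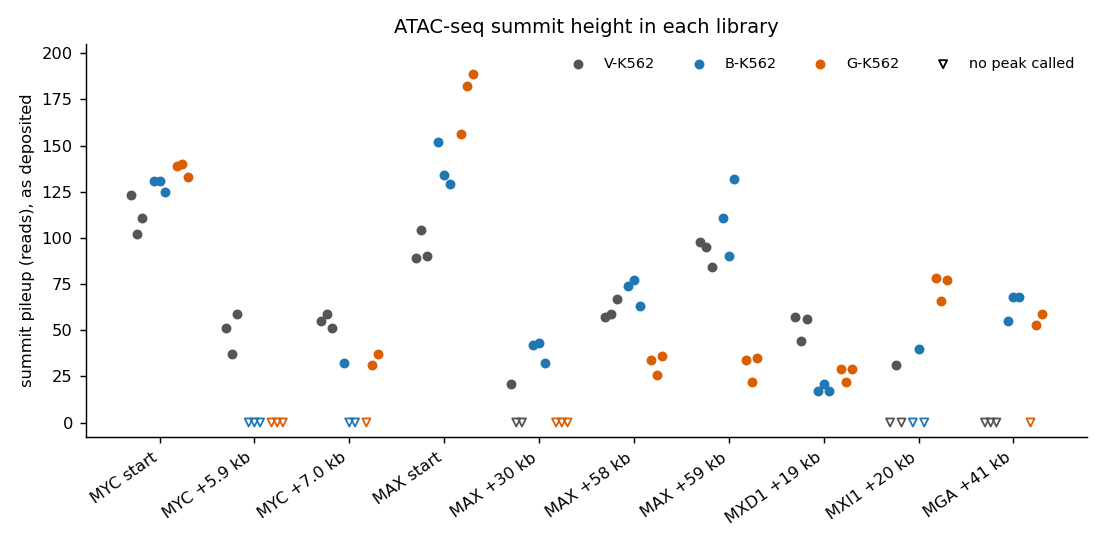
Deposited summit pileup in each library at the MYC and MAX starts and at the 8 member regions called with at least a 2-fold change; open triangles at 0 mark libraries with no peak, and labels give the distance from the gene start in the tables. At the MYC start the deposited summits are somewhat higher in B-K562 and G-K562 than in V-K562, with no call after scaling. The 2 regions past MYC are tallest in V-K562, and the MAX regions at 57.9 and 59.5 kb are lowest in G-K562.

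MAX had 7 regions. Its start was at 89, 104 and 90 in V-K562, 152, 134 and 129 in B-K562 and 156, 182 and 189 in G-K562 libraries. It was 0.40 higher in B-K562 (adjusted p = 0.028) and 0.54 higher in G-K562 cells (adjusted p = 0.0079), but neither was called within GC bins (0.22 and 0.27, adjusted p = 0.18 and 0.073), and the B-K562 call was lost without B-K562 replicate 1 or 2 or V-K562 replicate 1 or 3 (0.35 to 0.43). The largest change among member regions with a peak in all 9 libraries was in an intron 59.5 kb into MAX, a stretch that also lies within the span of CHURC1-FNTB. Its summits were at 98, 95 and 84 in V-K562, 111, 90 and 132 in B-K562 and 34, 22 and 35 in G-K562 libraries. All G-K562 libraries stood well below both other lines, with log2 fold changes of -1.94 against V-K562 (adjusted p = 4.4e-04) and -2.06 against B-K562 (adjusted p = 5.4e-05).

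The neighbouring region at 57.9 kb behaved alike, with 57, 59 and 67 in V-K562, 74, 77 and 63 in B-K562 and 34, 26 and 36 in G-K562 libraries (log2 -1.26, adjusted p = 0.0014, against V-K562, and -1.35, adjusted p = 1.9e-04, against B-K562). Both calls held within GC bins. Another intronic region, 29.6 kb in, had peaks of 42, 43 and 32 in B-K562, a single peak of 21 in V-K562 and none in G-K562 libraries. It was higher in B-K562 than in V-K562 (log2 0.94, adjusted p = 0.013, lost when V-K562 replicate 2 or 3 was left out) and lower with BASP1-G2A than with wtBASP1 (-1.16, adjusted p = 9.7e-04). A floor of 10 gave 1.41 and -1.87, so these sizes too depend on the floor. In both comparisons the region met the filter only through its B-K562 peaks. Its directions were thus fixed beforehand, and neither adjusted p is support. B-K562, the line with the most MAX RNA, was the only one with peaks in every library at all 3 of these regions, although the 2 further ones did not differ detectably between B-K562 and V-K562 cells (log2 0.10 and 0.07, adjusted p = 0.66 and 0.75).

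**Figure D5:**
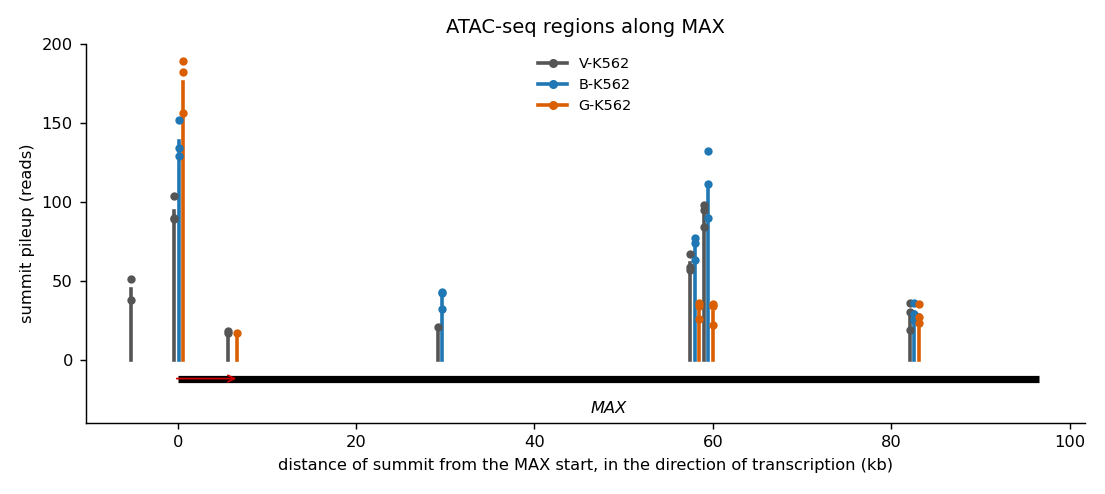
Summit pileup (points, one per library with a peak; stems to the mean of those points) along MAX, against distance from its start in kb; lines are shifted sideways for clarity, and the bar with an arrow shows the gene and its direction. The stems at 57.9 and 59.5 kb are short in G-K562 and tall in V-K562 and B-K562, and the stem at 29.6 kb is tallest in B-K562.

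The 300 bases around the summits of the 59.5 kb and the 29.6 kb regions are shown because these are the MAX regions where the lines differed most and in which a searched motif was found. They are read from the plus strand of GRCh38 (chr14:65043067-65043366 and chr14:65072907-65073206), with motif letters in capitals, a GATA motif in the first and an AP-1 motif in the second.
MAX intron 59.5 kb: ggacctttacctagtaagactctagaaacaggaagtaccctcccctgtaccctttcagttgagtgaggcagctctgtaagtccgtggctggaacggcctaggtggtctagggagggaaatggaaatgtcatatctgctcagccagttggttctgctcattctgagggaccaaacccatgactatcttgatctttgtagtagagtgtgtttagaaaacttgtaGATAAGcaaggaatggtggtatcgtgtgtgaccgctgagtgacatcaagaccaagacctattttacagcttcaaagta
MAX intron 29.6 kb: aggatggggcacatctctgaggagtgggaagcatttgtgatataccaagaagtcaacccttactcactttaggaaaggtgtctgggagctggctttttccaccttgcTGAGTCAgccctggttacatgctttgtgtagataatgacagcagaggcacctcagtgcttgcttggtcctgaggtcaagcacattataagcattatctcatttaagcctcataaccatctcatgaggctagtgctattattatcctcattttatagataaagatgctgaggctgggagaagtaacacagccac

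The GATA motif searched was GATAAG, and the AP-1 motif TGACTCA, each on both strands. They occur in 18.52% and 16.54% of the 300-base windows around all region summits. The match is a description of the letters and not of a bound factor.

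Beside its start, MXD1 changed at an intronic region 19.4 kb into the gene. Its summits were at 57, 44 and 56 in V-K562, 17, 21 and 17 in B-K562 and 29, 22 and 29 in G-K562 libraries. Both BASP1 lines stood below V-K562 with no overlap (log2 -1.56, adjusted p = 0.0029, and -1.29, adjusted p = 0.0019), and they did not differ detectably from each other (0.30, adjusted p = 0.31). MXD1 RNA fell in B-K562 cells only, and the direct test of the 2 lines above showed that difference. The window around the summit (chr2:69934315-69934614, plus strand) held an AP-1 and a GATA motif near each other.
MXD1 intron 19.4 kb: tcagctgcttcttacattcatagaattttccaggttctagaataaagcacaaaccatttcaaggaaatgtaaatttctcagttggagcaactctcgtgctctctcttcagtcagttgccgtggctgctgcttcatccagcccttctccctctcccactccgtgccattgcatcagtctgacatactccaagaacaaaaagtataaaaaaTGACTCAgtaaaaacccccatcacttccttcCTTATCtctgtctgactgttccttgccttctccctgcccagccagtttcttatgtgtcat

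MGA had an intronic region 40.6 kb from the start given in the tables, 1451 bp from the nearest annotated start, with peaks in the BASP1 lines only. No V-K562 library had a peak there, while B-K562 libraries were at 55, 68 and 68 and 2 of 3 G-K562 libraries at 53 and 59. Against the floor the log2 fold change in B-K562 was 1.76 (adjusted p = 0.0020), and 1.72 within GC bins (adjusted p = 0.0027). A floor of 10 gave 2.47, so the size depends on the floor. The region met the filter of this comparison only through its B-K562 peaks, so its direction was fixed beforehand and its adjusted p is no support. With peaks in fewer than 3 libraries of the G-K562 comparison it was not tested there, and G-K562 and B-K562 did not differ detectably (-0.88, adjusted p = 0.11). Its window (chr15:41661707-41662006, plus strand) is printed because it held 2 copies of the E-box CACGTG, the palindrome that MYC and MAX dimers bind, beside 1 GC box (GGGCGG).
MGA intron 40.6 kb: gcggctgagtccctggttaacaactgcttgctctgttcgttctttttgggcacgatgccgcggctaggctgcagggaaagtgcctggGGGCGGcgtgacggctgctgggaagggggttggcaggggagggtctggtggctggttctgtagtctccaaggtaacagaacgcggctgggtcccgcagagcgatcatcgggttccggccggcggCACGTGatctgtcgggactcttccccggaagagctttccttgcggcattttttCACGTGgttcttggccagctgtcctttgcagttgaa

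An E-box was present in the windows of 6 of the 48 member regions, against 6.32% of all regions. Besides the MGA intron these were the starts of MAX, MXD3 and MXD4, an intronic MNT region and a region downstream of MXD3 at the start of another gene.

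MXI1, whose RNA was lowest in G-K562 cells, had its tallest peaks of 1 region there. It lay 19.8 kb from the start in the tables and 21 bp from another annotated start (chr10:110227101-110227590), with summits of 78, 66 and 77 in G-K562 libraries and a single peak in each of V-K562 (31) and B-K562 (40). It was 1.55 higher than in V-K562 (adjusted p = 0.0045) and 1.45 higher than in B-K562 cells (adjusted p = 0.017, lost when B-K562 replicate 1 or 3 was left out). A floor of 10 gave 2.02 and 1.92. Both calls held within GC bins (1.31 and 1.33, adjusted p = 0.019 and 0.028). The region met the filter of both comparisons only through its G-K562 peaks. Its direction was thus fixed beforehand, and these adjusted p are no support. An intronic MXI1 region 14.4 kb in was modestly lower in G-K562, at 153, 112 and 133 against 153, 166 and 147 in V-K562 (log2 -0.58, adjusted p = 0.0064). The region at the MXI1 start itself, at 66, 62 and 55 in V-K562 and 76, 50 and 71 in G-K562 libraries, was not called (log2 -0.26, adjusted p = 0.28). Another start region, 18.3 kb in with a peak in every library, was not called either (log2 0.26, adjusted p = 0.16). MXI1 RNA was thus lower in G-K562 cells, while the called regions of the gene included changes of both signs. The called rise was that of the region whose direction was fixed beforehand.

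Upstream of MYCN, 419 bp before the gene, a low region had no peak in V-K562 libraries and peaks of 25, 29 and 24 in B-K562 and 25, 35 and 25 in G-K562 libraries. It was called in both lines (log2 0.51, adjusted p = 0.021, and 0.52, adjusted p = 0.038), at heights near the floor of 17. In each comparison it met the filter only through the peaks of the BASP1 line, so its direction was fixed beforehand and its adjusted p is no support. A floor of 10 gave 1.22 and 1.23 (adjusted p = 0.0054 and 0.0031), and the calls were lost when any 1 V-K562 library was left out (0.52 and 0.55) or when the mean pileup was used (0.10 and 0.19).

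MNT, higher in both lines, had 2 intronic regions that were higher in both. The one 4.04 kb in was at 108, 94 and 86 in V-K562, 176, 161 and 148 in B-K562 and 172, 187 and 163 in G-K562 libraries, and no V-K562 library reached the lowest of the others (log2 0.60, adjusted p = 0.0098, and 0.51, adjusted p = 0.016). The one 8.07 kb in changed by 0.54 (adjusted p = 0.023) and 0.76 (adjusted p = 0.0035). Within GC bins only the latter value in G-K562 cells was still called (0.36, adjusted p = 0.042).

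RefSeq promoter windows of 250 bases before to 50 after a start (GRCh38.p14) were found for 9 of the 10 members, all but MYC. Those 9 members had 14 windows in all. E-boxes stood in 2 of the 14, 1 each of MXD4 and MNT, against 7.26% of all promoter windows, and GC boxes in 11 of the 14, at least 1 for each of the 9 members, against 44.95%. An AP-1 motif was found for 1 member, MXD3 (4.95% of all windows). No promoter window held the GATA motif or the WT1/EGR motif GCGTGGG (6.36% and 6.98% of all windows). Around region summits, the WT1/EGR motif stood at the MYC start, the 19.8 kb MXI1 start region and the intronic 4.04 kb MNT region. It occurs in 4.43% of the 300-base windows around all region summits. The 250 bases before the MXD4 start (chr4:2262110-2262359, minus strand) are shown because they hold an E-box, the motif that these dimers bind, in front of a member gene. The E-box begins 238 bases before the start, and a GC box follows.
MXD4 promoter: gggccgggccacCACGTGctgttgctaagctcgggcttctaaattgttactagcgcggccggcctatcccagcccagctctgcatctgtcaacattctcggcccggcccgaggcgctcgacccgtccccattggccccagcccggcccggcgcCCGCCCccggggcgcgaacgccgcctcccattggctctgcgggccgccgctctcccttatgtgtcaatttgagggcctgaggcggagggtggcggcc

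The region over this promoter was at 242, 231 and 267 in V-K562, 354, 341 and 382 in B-K562 and 377, 397 and 433 in G-K562 libraries. It was 0.39 and 0.35 higher in the 2 lines (adjusted p = 0.017 and 0.013) but 0.10 and -0.04 within GC bins (adjusted p = 0.52 and 0.73), while MXD4 RNA fell in B-K562 cells and was not called in G-K562 cells.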

How the data were processed

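Per the labels and the study's methods, the authors mapped reads to GRCh38 (STAR for RNA, BWA-MEM for ATAC-seq), left out duplicates and reads with more than 2 mismatches or several positions, counted RNA reads per RefSeq gene with Subread (strand setting not stated) and divided them by DESeq2 size factors. The deposited RNA values are these quotients as whole-number scores, beside gene lengths, in a table of V-K562 and B-K562 and another of V-K562 and G-K562. The deposited ATAC-seq signal is the pileup per MACS2 peak, called per library after the authors had reduced all libraries to equal tags. The deposited fold changes and p-values, the authors' own comparisons, were not used.

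RNA was tested with limma-trend (limma 3.58.1, R 4.3.3) on log2(value + 1), for genes at 10 or more in at least 3 libraries, with Benjamini-Hochberg adjustment over all genes. For G-K562 against B-K562 the tables were joined through the shared V-K562 libraries (B-K562 values multiplied by 1.017). Fold changes of low genes are understated on this scale. For ATAC-seq, overlapping peaks were merged into 85549 regions, the highest summit per library was scaled by a trimmed mean of log ratios, absent peaks were set to 17, and regions with a peak in at least 3 libraries were tested in the same way. Regions were placed with GENCODE release 44, and a region was at a start when it lay within 100 bp of one. Interval starts are printed as deposited and may be off by 1 base, since the files do not say how they count. The fits were tested on simulated data.

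The members and gene lists were chosen with earlier results of these data known. Genes were named by rule: all members, regions at starts or called with 2-fold changes, and of each list the 2 largest rises and falls called per comparison. ODC1, SRM in B-K562, CCND2, NCL, NPM1, NOP56 and WDR43 were named in addition after their values were seen. So were FBL, POLR1B, NOP16, GNL3, BOP1, PPAN and DKC1 in G-K562, the MXI1 start region at 18.3 kb and the intronic MXI1 and MNT regions. Some results that this rule names are not reported here. Alternatives are listed in the closing section; scaling within 20 GC bins was added after seeing the data. Nothing says that replicates came from separate transfections, so p-values measure the spread between cultures of 1 pool. For ATAC-seq this holds only where peaks were present. Absent peaks all took the same floor value, so a line without any peak in a region had no spread there. Where some or all peaks of a line were absent, the adjusted p does not measure its spread between cultures.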

Additional observations from a re-analysis of the deposited data

Results flagged for a closer look

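MAX RNA moved in opposite directions in the 2 BASP1 lines, up in B-K562 and down in G-K562 cells, and the direct comparison of the lines gave a log2 fold change of -0.88 (adjusted p = 9.0e-09, limma-trend), lower in 3 of 3 G-K562 libraries.

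MYCN lay below the filter and in no comparison with V-K562. Its lowest value over the 6 B-K562 and G-K562 libraries was 5, against at most 1 in the V-K562 libraries. Without the filter it was called in both lines, at V-K562 values no larger than the 1 that is added before taking logs. Its reads and those of its antisense neighbour MYCNOS cannot be told apart, since the strand setting of the counting is not stated.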

How the results depend on the processing

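For RNA, the number of members called moved by at most 1 under another pseudocount, no filter or a stricter one, quantile normalization, limma without a trend, unscaled joining of the tables, or the omission of any 1 library. Requiring a 2-fold change left 1 (0 higher, 1 lower), 2 (0 higher, 2 lower) and 2 (0 higher, 2 lower) members in B-K562 against V-K562, G-K562 against V-K562 and G-K562 against B-K562. Of single RNA values, those that changed sign were not called in either setting. Leaving out 1 library, MYC in B-K562 ranged from -0.01 (without V-K562 replicate 1) to 0.09, MXD4 in G-K562 from -0.16 to 0.02 (without V-K562 replicate 3), and between the BASP1 lines MYCN from -0.12 (without B-K562 replicate 3, and -0.01 without replicate 2) to 0.43 and MGA from -0.23 to 0.00 (without G-K562 replicate 2). Quantile normalization gave -0.10 for MYC in B-K562 and -0.37 for MYCN between the BASP1 lines. The change of 1 was MYCN, called in both lines without the filter, and MNT, lost between the BASP1 lines under quantile normalization.

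Member regions were less stable. In B-K562 against V-K562, leaving out 1 library left 6 to 9 calls, 3 to 5 higher and 2 to 4 lower; GC bins, chosen after seeing the data, left 8 (3 higher); regions with a peak in every library 8 (2 lower); regions overlapping the gene 9 (2 lower); mean pileup and equal tags alone 3 lower each; and the 2-fold criterion 4 (1 higher, 3 lower). In G-K562 against V-K562, GC bins left 12 (6 higher), equal tags alone gave 20 higher and 5 lower, and the 2-fold criterion left 6 (1 higher, 5 lower). Between the BASP1 lines, 3 to 6 were higher without 1 library, 10 under equal tags alone and 3 with a peak in every library, and the 2-fold criterion left 4 (1 higher). The causes were not tested.

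GC bins turned the sign of B-K562 values at the starts of MGA (-0.20), MNT (-0.15), MXD1 (-0.05), MXI1 (-0.05) and MYC (-0.03), and of G-K562 values at those of MNT (-0.08) and MXD4 (-0.04). Equal tags alone turned MXI1 (0.09) and MYC (0.30) in G-K562, and, between the BASP1 lines, MXD3 (0.15), MXD4 (0.16), MYCL (0.06), MYC (0.09) and the region upstream of MYCN (0.11, and 0.02 by mean pileup). Leaving out 1 library turned uncalled values, which then ranged in B-K562 from -0.03 to 0.25 for MAX at 59.5 kb, -0.03 to 0.09 for MGA, -0.04 to 0.19 for MNT, -0.11 to 0.13 for MXI1 and -0.03 to 0.13 for MYC, in G-K562 from -0.13 to 0.02 for MYC, and between the BASP1 lines from -0.27 to 0.00 upstream of MYCN. Of all these only MXD4 in G-K562 was called to begin with.

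Replicate numbers showed little pairing of the samples: deviations of same-numbered libraries correlated at -0.08 to 0.14 for RNA and 0.01 to 0.12 for ATAC-seq. For ATAC-seq all of these were positive, and the same-numbered library was the best match in most cases. A weak pairing of the ATAC-seq samples thus remains possible. With the number as a replicate block, calls went from 11342 to 11481, 10209 to 10075 and 12190 to 12151 genes, and from 13136 to 12714, 22734 to 22471 and 16768 to 16365 regions, in the order of comparisons above. The block kept 8, 7 and 8 members called for RNA. It took the adjusted p of the MYCL start in G-K562 to 0.051 and of the MXD1 start between the BASP1 lines to 0.05, just past the threshold. Depth limits MYCN, whose reads are too few to test against V-K562.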
